A study of Mus musculus with 14 samples.

Results

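The NF-κB subunits and inhibitors described here were 10 genes chosen by name. They were the 5 subunit genes Nfkb1, Nfkb2, Rel, Rela and Relb, and 5 genes of the inhibitor of NF-κB (IκB) family, Nfkbib, Nfkbie, Nfkbid, Nfkbiz and Bcl3. All 10 were found among the 48363 genes with values, and all 10 were among the 16241 genes that reached 10 normalized counts in at least 2 libraries and were tested. The RNA-seq libraries were made from CD4+ regulatory T cells (Tregs), sorted from pooled spleen and lymph nodes of untreated mice by the YFP reporter of the Foxp3 locus. The cKO Tregs (5 libraries) were from Foxp3-Cre mice whose miR-15/16 clusters were both flanked by loxP sites (fl/fl), so that Cre made from the Foxp3 locus removes them once a cell has expressed Foxp3. The WT Tregs (4 libraries) were from Foxp3-Cre mice with wild-type (wt/wt) clusters. The CD25lo Tregs (2 libraries) and CD25hi Tregs (3 libraries) were WT Tregs separated by their level of CD25, the α chain of the IL-2 receptor. Cells of all 4 groups carried the Foxp3 allele with Cre and YFP. The study's methods describe adult male and female mice matched by age and sex. They do not give the sex of the mice behind each library, or which of the stated ages applies to these libraries. The study calls its cKO and WT samples biological replicates, in numbers that differ from the 5 and 4 libraries here. The labels do not tie a library to an animal, so the p-values measure the spread between libraries.

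NF-κB is a family of dimeric transcription factors that T cells use downstream of the T cell receptor, CD28 and receptors of the TNF family. The canonical route releases RelA and c-Rel dimers from classical IκB proteins, and the noncanonical route processes the Nfkb2 product p100 and frees RelB. In Tregs, c-Rel is known for binding a conserved element of Foxp3 during Treg development, and the nuclear protein encoded by Nfkbid acts there with c-Rel. Atypical IκB proteins (the products of Nfkbid, Nfkbiz and Bcl3) work mainly in the nucleus, where they modify NF-κB at target genes, and several family genes are themselves NF-κB targets.

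The miRNAs deleted in cKO Tregs share 1 seed, bases 2 to 8, shown here in capitals because matches to it in the members are described with the comparison of genotypes. The sequences are from RefSeq (GRCm38.p6), 5′ to 3′, with miR-15a on chromosome 14, miR-15b on chromosome 3 and miR-16 made from both clusters.
mmu-miR-15a-5p: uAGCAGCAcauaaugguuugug
mmu-miR-15b-5p: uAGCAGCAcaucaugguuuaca
mmu-miR-16-5p: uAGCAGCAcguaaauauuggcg

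The libraries held 30055573 to 35226685 reads in genes, and 13723 to 18200 genes had a read. Il2ra, which encodes CD25, averaged 14854 ± 244 normalized counts in CD25lo Tregs and 40165 ± 889 in CD25hi Tregs (SD, n = 2 and n = 3), as the labels say. Dleu2, the host transcript of 1 deleted cluster, was at 2121 to 2713 normalized counts in cKO Tregs and 86.3 to 1099.7 in WT Tregs. A list of 7 CD8 T and NK cell markers summed to 972.8 to 1590.3 normalized counts in cKO, 1054 to 1842 in WT, 966.6 to 1238 in CD25lo and 1023 to 1258 in CD25hi Tregs. The 12 myeloid and dendritic cell markers summed to 1260.1 to 5061 normalized counts in cKO, 1651 to 7628 in WT, 1815 to 2021 in CD25lo and 1281 to 1925 in CD25hi Tregs, with 0 to 8 of the 12 at 0 in a library. A list of 9 B cell markers summed to 1007.2 to 1317 normalized counts in cKO, 536.4 to 977.8 in WT, 594.4 to 771.1 in CD25lo and 455.2 to 692.6 in CD25hi Tregs, so that all 5 cKO libraries lay above all the others. Cd79b, which encodes a chain of the B cell receptor complex, was at 469.7 to 775.7 normalized counts in cKO Tregs and 163.4 to 438.4 in WT Tregs (log2 fold change 1.25, limma adjusted p = 0.0519). Cd79a, another gene of the list, was at 9.4 to 29.0 in cKO and 27.7 to 52.1 in WT Tregs. Ms4a1, a defining B cell gene, was at 0 to 9.4 in cKO and 0 to 45.7 in WT Tregs. Of the 7 listed B cell genes that were tested, 5 had a positive log2 fold change in cKO over WT, and 0 were called higher or lower. The part of B cell transcripts in the values of cKO Tregs was not tested. Csf1r, a macrophage gene, was at 127.5 to 2126 normalized counts in cKO Tregs and 552.9 to 3159 in WT Tregs. WT replicate 4 stood apart from the other WT libraries and lay near the CD25-sorted ones. A set of 22 immediate early and heat shock genes, which respond quickly to stimulation and to cell handling, had a mean log2 level of 12.81, 13.01, 13.30, 13.74 and 14.09 in cKO replicates 1 to 5, and 14.23, 14.17, 14.17 and 12.52 in WT replicates 1 to 4. It was 12.74 and 12.37 in CD25lo Tregs and 12.35, 12.30 and 12.44 in CD25hi Tregs. The mean log2 level of the same 12 markers was also higher in WT replicates 1 to 3 (7.28, 6.21 and 6.91) than in WT replicate 4 (3.58), and was 3.45 to 7.08 in cKO, 3.48 to 4.33 in CD25lo and 2.53 to 4.60 in CD25hi Tregs. Xist was high in all 5 cKO libraries and in WT replicate 3, and at most 64.6 normalized counts in the others, so high Xist and genotype nearly coincide. Matching by sex could not be checked for these libraries, and sex and genotype cannot be fully told apart.

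Nfkb1 (chr3:135584655-135691547, minus strand, GRCm38 as for all loci given) encodes p105 and its product p50. It was at 17918, 18059, 18596, 18022 and 19995 normalized counts in cKO Tregs and at 18573, 18228, 17284 and 17972 in WT Tregs. It was at 15363 and 16240.0 in CD25lo Tregs and at 18554, 17614 and 17761 in CD25hi Tregs. The cKO, WT and CD25hi libraries overlapped, and both CD25lo libraries lay below every other library.

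Rela (chr19:5637483-5648130, plus strand) encodes p65, the main activating subunit of the canonical route, and was the steadiest member. It was at 5614, 5428, 5695, 5855 and 5522 normalized counts in cKO Tregs and at 5448, 6015, 5389.8 and 5549 in WT Tregs. It was at 5691 and 5598 in CD25lo Tregs and at 5393, 5536 and 5422 in CD25hi Tregs. Its highest library was 1.12 times its lowest, the smallest such ratio of the 10 members.

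Rel (chr11:23736847-23770970, minus strand) encodes c-Rel. It was at 8255, 7965, 7897, 9498 and 9280.0 normalized counts in cKO Tregs and at 9567, 9667, 9963 and 6986 in WT Tregs. It was at 5960.2 and 5343 in CD25lo Tregs and at 6802, 6880.5 and 7315 in CD25hi Tregs. WT replicate 4 lay beside the CD25hi libraries, and the other 3 WT libraries were above all 5 cKO libraries. Both CD25lo libraries were the lowest of the 14.

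Nfkb2 (chr19:46304737-46312090, plus strand) encodes p100 and its product p52, and Relb (chr7:19606217-19629438, minus strand) their noncanonical partner. Nfkb2 was at 5801, 4935, 6523, 5830.1 and 6357 normalized counts in cKO Tregs and at 5618, 6563, 5504 and 5090.3 in WT Tregs. It was at 4574 and 4451 in CD25lo Tregs and at 4848, 5658 and 5202 in CD25hi Tregs, so CD25lo libraries were again the lowest of the 14. Relb was at 2686, 2482, 3498, 2548 and 2994 normalized counts in cKO Tregs and at 2848, 2994, 3116 and 2543 in WT Tregs. It was at 2419 and 2609 in CD25lo Tregs and at 2685, 2703 and 2671 in CD25hi Tregs, with all 5 sorted libraries inside the bulk range or just below it.

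Of the classical inhibitors, the members Nfkbib (IκBβ, chr7:28758251-28767512, minus strand) and Nfkbie (IκBε, chr17:45555716-45563169, plus strand) encode proteins that hold NF-κB dimers in the cytoplasm. Nfkbib was at 1603, 1542, 1895, 1762 and 1884 normalized counts in cKO Tregs and at 1835, 2288, 2009.7 and 1365 in WT Tregs. It was at 1476 and 1723 in CD25lo Tregs and at 1507, 1052 and 1864 in CD25hi Tregs, where replicate 2 was the lowest of the 14 libraries. Nfkbie was at 2401, 2161, 2703, 2470.5 and 2782 normalized counts in cKO Tregs and at 2603, 2477, 2249.7 and 1785 in WT Tregs. It was at 1638 and 2018 in CD25lo Tregs and at 2265, 1717 and 2153 in CD25hi Tregs, with overlap in each comparison of the study.

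The atypical members Nfkbid, Nfkbiz and Bcl3 had the largest ratios of highest to lowest library among the 10 members (3.43, 2.97 and 2.35). A wide spread was not particular to atypical genes. Nfkbia, the gene of the classical inhibitor IκBα and not a member, ran from 7041.9 normalized counts in WT replicate 4 to 19573.5 in WT replicate 2. Nfkbid (chr7:30421732-30428746, plus strand) encodes IκBNS, and was at 5271, 4645, 5646, 6899 and 8308 normalized counts in cKO Tregs and at 7418, 6658, 6999 and 3836 in WT Tregs. It was at 3449.7 and 3339 in CD25lo Tregs and at 3368, 2421 and 2934 in CD25hi Tregs, and all 9 bulk libraries were above all 5 CD25-sorted libraries.

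Nfkbiz (chr16:55811375-55838899, minus strand) encodes IκBζ, an inducible coactivator of a subset of NF-κB targets. It was at 9967, 9190.5, 9868, 13236 and 13974 normalized counts in cKO Tregs and at 14776, 13708, 12844 and 6291 in WT Tregs. It was at 5999 and 4973 in CD25lo Tregs and at 7551, 7098 and 6466 in CD25hi Tregs. WT replicate 4 fell among the CD25-sorted libraries and the other 8 bulk libraries lay above them all.

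Bcl3 (chr7:19808462-19822770, minus strand) encodes a nuclear partner of p50 and p52. It was at 1615, 1908, 2345, 1691 and 2035 normalized counts in cKO Tregs and at 2071, 2850.2, 2123 and 1727 in WT Tregs. It was at 1666 and 1215 in CD25lo Tregs and at 2394, 2499.6 and 2084 in CD25hi Tregs. The CD25lo libraries lay below the CD25hi ones with a gap, and Bcl3 was the only member whose mean was highest in CD25hi Tregs.

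**Figure D1:**
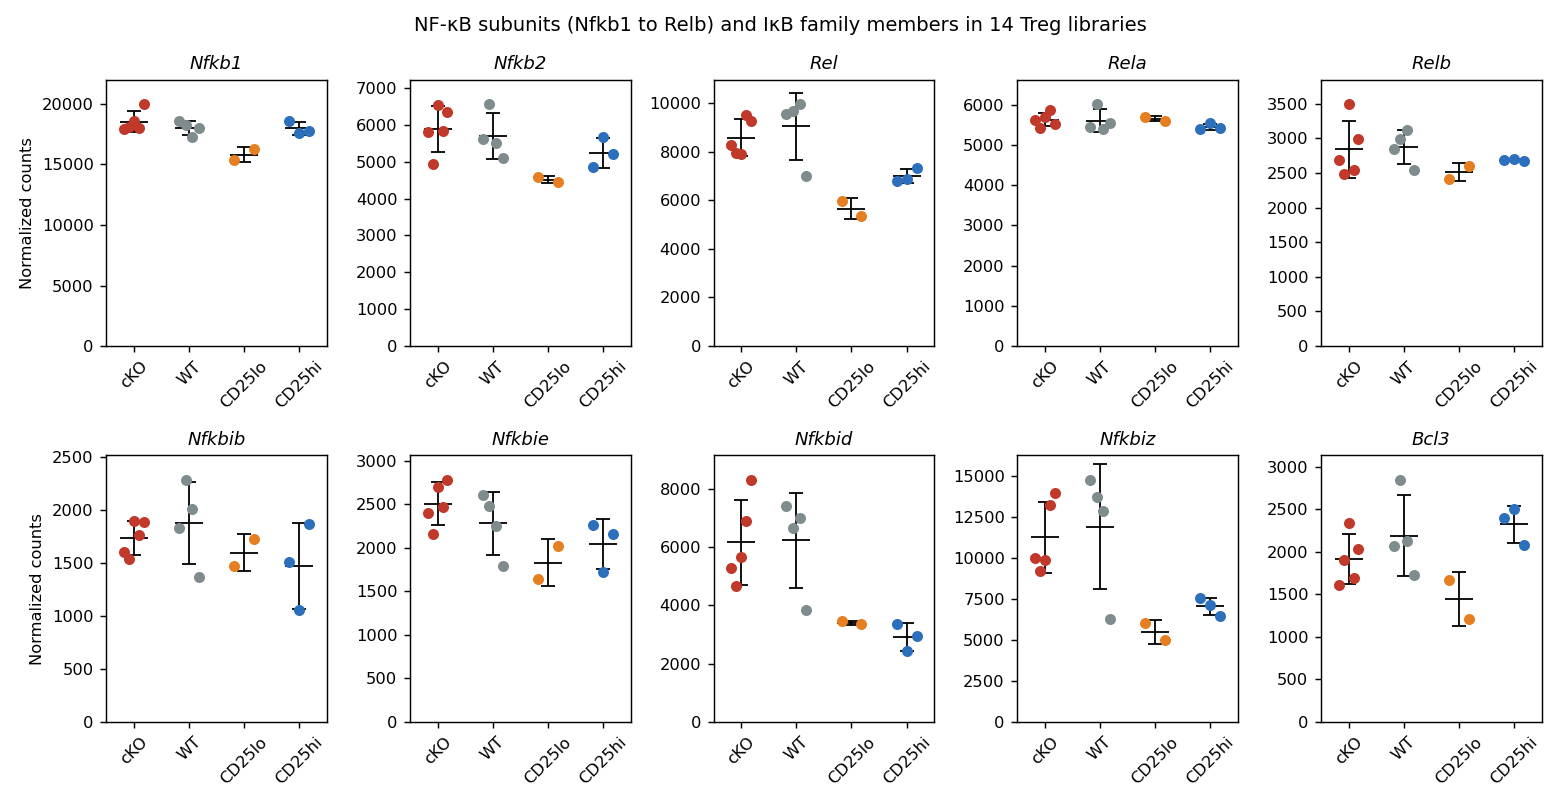
Normalized counts (vertical axes, from 0) of the 10 members in each library of the cKO, WT, CD25lo and CD25hi groups, with the mean (dash) and SD (bars). Rela is flat, Nfkbid and Nfkbiz spread most, and WT replicate 4 (the rightmost WT point) is the lowest WT library for 8 of 10 members.

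WT replicate 4 was the lowest WT library for 8 of the 10 members, all but Nfkb1 and Rela. Over the 13422 genes tested that had no tie among the WT libraries, it was the lowest for 31.6%.

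Levels were compared between genes only per length, as normalized counts per kb of all annotated exons (GENCODE, GRCm38). In WT Tregs the 2 atypical genes Nfkbid (2655 per kb) and Nfkbiz (2372) were the highest, ahead of Rela (1823), Nfkb1 (1494), Nfkb2 (1242) and Rel (1212), with Bcl3 (886), Nfkbib (864), Nfkbie (748) and Relb (740) at the low end. In CD25hi Tregs Rela (1774 per kb) was the highest, with Nfkb1 (1491), Nfkbiz (1403) and Nfkbid (1239.5) after it. Nfkb1 depended on the length used, because its annotated exons span 12061 bases and its longest transcript 4149. Per kb of the longest transcript it was the highest member, at 4342 in WT Tregs, against 3054 for Nfkbid. Annotated genes on the other strand overlap Nfkb2, Nfkbib and Bcl3, and whether the counting used strand is not stated, so reads of these genes and of their antisense partners cannot be told apart. Nfkb1 overlaps the annotated gene Gm43430 on its own strand, where strand would not separate the reads.

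**Figure D2:**
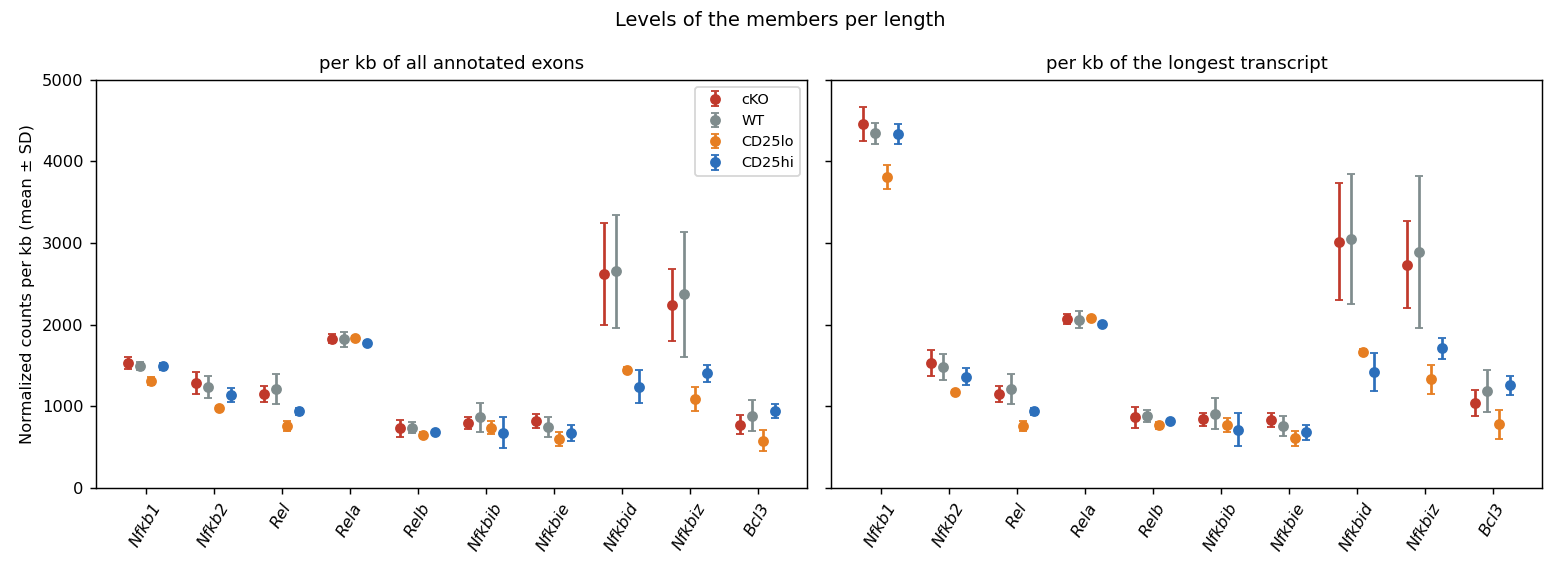
Mean ± SD of normalized counts per kb (vertical axes) for each member (horizontal axes) in the 4 groups, by exon union (left) and longest transcript (right). Nfkb1 moves most between the panels, from 1494 to 4342 per kb in WT Tregs, and Relb, Nfkbib and Nfkbie stay low in both.

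The comparison of cKO with WT Tregs asks which transcripts differ between the genotypes. The paper states that its profiles mix direct effects on miRNA targets, indirect effects and possibly effects from outside the cell. High Xist and genotype also nearly coincide. None of the 10 members was called by limma-trend (Benjamini-Hochberg adjusted p under 0.05 over all genes tested), where 3.52% of all genes tested were called, and none had an unadjusted p under 0.05. The cKO and WT libraries overlapped for all 10 members, whereas 8.54% of all genes tested showed no overlap. edgeR, DESeq2 and limma-voom on recovered reads called none either. Log2 fold changes ran from -0.18 (Bcl3, SE 0.14, limma adjusted p = 0.572) to 0.14 (Nfkbie, SE 0.12, adjusted p = 0.605), with a median of -0.01 for the members and 0.05 for all genes tested. The subunits were within 0.07 of 0: Nfkb1 averaged 18518 ± 867 normalized counts in cKO Tregs and 18014 ± 546 in WT Tregs (SD, n = 5 and n = 4), a log2 fold change of 0.04 with a 95% interval of -0.07 to 0.15. Rela averaged 5623 ± 164 in cKO Tregs and 5600.3 ± 284 in WT Tregs (0.01, interval -0.11 to 0.13), and Rel averaged 8579 ± 756 in cKO Tregs and 9046 ± 1383 in WT Tregs (-0.07, interval -0.26 to 0.13). The intervals of the 10 members lay between -0.47 (Bcl3) and 0.39 (Nfkbie), and those of Nfkbiz (-0.42 to 0.36) and Nfkbid (-0.37 to 0.37) were among the widest.

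Without WT replicate 4, Nfkbiz had a log2 fold change of -0.31 (adjusted p = 0.176 from limma), Bcl3 of -0.29 (0.305), Nfkbib of -0.23 (0.452), Nfkbid of -0.22 (0.474) and Rel of -0.19 (0.188), again with no member called. With the immediate early level of the library as a term, Nfkbiz was at 0.20 (adjusted p = 0.132), Nfkbid at 0.21 (0.191), Nfkbie at 0.23 (0.222) and Rel at 0.03 (0.832). The direction of Nfkbid, Nfkbiz, Rel, Rela, Relb, Nfkbib and Nfkb2 between cKO and WT Tregs turned with the library left out, the term or the scaling, and only Nfkb1, Nfkbie and Bcl3 kept theirs under every alternative tried.

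Matches to the seed were searched in the longest annotated 3′ UTR of each gene, as TGCTGCT or GCTGCTA, alone or joined as the 8-mer TGCTGCTA. Of the 10 members, 3 held a match (Rel, Nfkb1 and Nfkbib), beside 27.8% of 12732 genes tested with an annotated UTR. Rel has the longest UTR of the members, 5418 bases, and held 2 matches. The sites are shown because they are where the deleted miRNAs could pair, with the match in capitals, on the transcript strand of GRCm38.
Rel, chr11:23740029-23740058 (minus strand), 8-mer: aggcttggtccTGCTGCTAcagctgagagg
Rel, chr11:23739738-23739766 (minus strand), 7-mer: ttctggtcgacTGCTGCTcttcctcctcc
Nfkb1, chr3:135585067-135585096 (minus strand), 8-mer: tgagctttctcTGCTGCTActggatcacat
Nfkbib, chr7:28758266-28758294 (minus strand), 7-mer: gctattttgatTGCTGCTcccaactgagg
The log2 fold changes of these 3 genes in cKO over WT Tregs were -0.07 for Rel, 0.04 for Nfkb1 and -0.09 for Nfkbib, none of them called. A match is a description of the letters and not a measured binding site. None of the 4 miRNA genes had a read in any library, so their loss was not read from these data.

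The comparison of CD25lo with CD25hi Tregs asks what goes with the level of CD25 in WT cells. None of the 10 members was called by limma-trend, where 1.62% of all genes tested were called, although 3 had an unadjusted p under 0.05 (Bcl3, Nfkb1 and Rel). edgeR and limma-voom called none and DESeq2 called Bcl3. Of the members, 6 had both CD25lo libraries below all 3 CD25hi libraries (Nfkb1, Nfkb2, Rel, Relb, Nfkbiz and Bcl3), which was so for 11.6% of all genes tested, and Rela was the 1 member with both above. The median log2 fold change was -0.17 for the members and 0.00 for all genes tested. Fewer cells of a kind and less RNA per cell cannot be told apart in such bulk samples.

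Bcl3 had the largest difference, averaging 1440.5 ± 319 normalized counts in CD25lo Tregs and 2326 ± 216 in CD25hi Tregs (SD, n = 2 and n = 3), a log2 fold change of -0.70 (95% interval -1.10 to -0.31, adjusted p = 0.0728 from limma). It was called without WT replicate 2 (adjusted p = 0.0306), without WT replicate 4 (0.0361) and with the immediate early term (-0.75, adjusted p = 0.0173), and over its alternatives the adjusted p ran from 0.0173 to 0.475. Rel averaged 5652 ± 436 in CD25lo Tregs and 6999 ± 276 in CD25hi Tregs, a log2 fold change of -0.31 (interval -0.58 to -0.04, adjusted p = 0.274). Nfkb1 averaged 15802 ± 620 in CD25lo Tregs and 17976 ± 506 in CD25hi Tregs, a log2 fold change of -0.19 (interval -0.34 to -0.04, adjusted p = 0.24). The others were at -0.36 (Nfkbiz), -0.21 (Nfkb2), -0.16 (Nfkbie), -0.10 (Relb), 0.05 (Rela), 0.15 (Nfkbib) and 0.24 (Nfkbid), with intervals that include 0. With the immediate early term, Rel (-0.36, adjusted p = 0.0122) and Nfkbiz (-0.48, adjusted p = 0.01) were called as well. Over all genes tested that fit called 204 higher and 273 lower, beside 99 and 164 without the term. Nfkbib turned to -0.07 without CD25hi replicate 2.

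**Figure D3:**
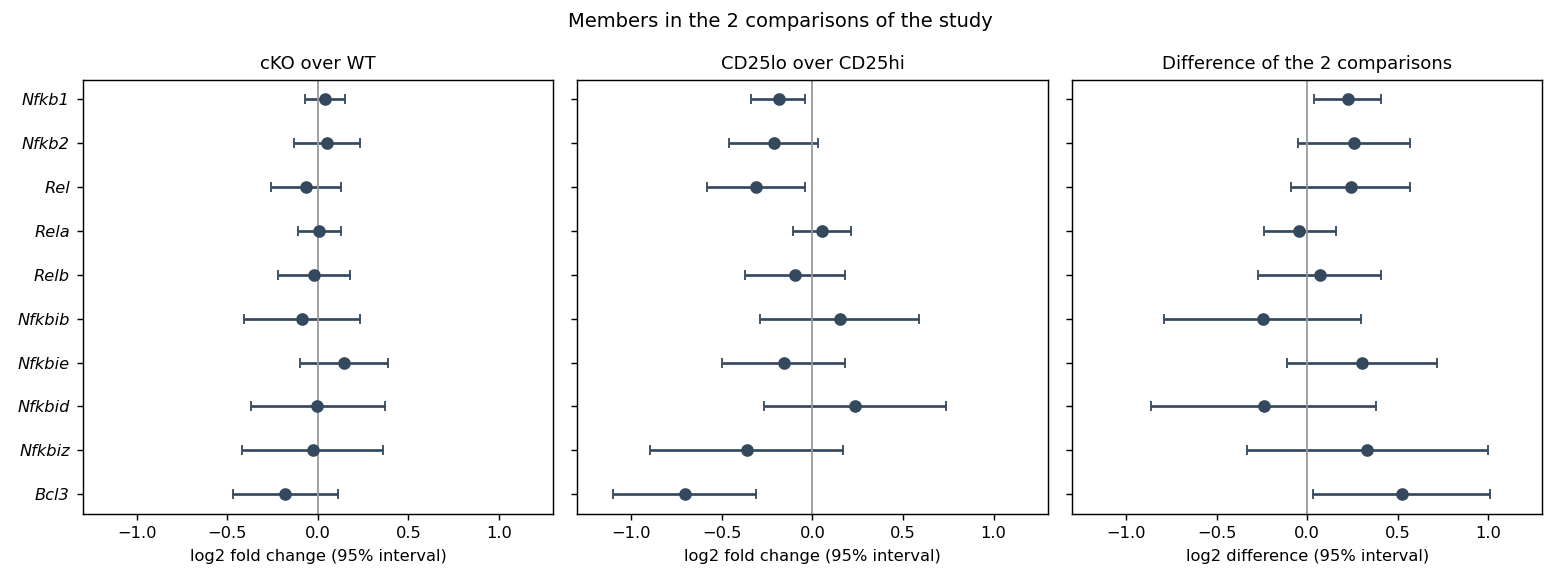
Log2 fold change (points) and 95% interval (bars) of each member for cKO over WT, CD25lo over CD25hi, and the first minus the second. In the first panel the intervals of all 10 members include 0, and in the second those of Bcl3, Rel and Nfkb1 do not.

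The difference between the 2 comparisons (cKO over WT minus CD25lo over CD25hi) was tested in the same fit. No member was called by limma-trend, where 1.03% of all genes tested were called, and Nfkb1 (0.23) and Bcl3 (0.52) had an unadjusted p under 0.05 (adjusted p = 0.257 and 0.33). edgeR, DESeq2 and limma-voom called none. With the immediate early level as a term, Nfkbiz (0.68, adjusted p = 0.00484) and Rel (0.39, adjusted p = 0.031) were called. Over all genes tested that fit called 297 higher and 205 lower, beside 109 and 59 without the term.

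Over the 4 groups, 8 of 10 members had both bulk groups above both CD25-sorted groups in the order of their means, all but Rela and Bcl3, and 23.3% of all genes tested had this order. From high to low, Rel, Relb and Nfkbiz ran WT, cKO, CD25hi, CD25lo. Nfkb1, Nfkb2 and Nfkbie ran cKO, WT, CD25hi, CD25lo, and Nfkbib and Nfkbid ran WT, cKO, CD25lo, CD25hi. Rela ran CD25lo, cKO, WT, CD25hi, and Bcl3 ran CD25hi, WT, cKO, CD25lo. Neighbours in that order differed at an adjusted p under 0.05 in 2 cases: cKO against CD25lo for Nfkbid (means 6154 and 3394 normalized counts) and cKO against CD25hi for Nfkbiz (11247 and 7039). For Rela, Relb, Nfkbib, Nfkbie and Bcl3 no pair of groups was called. These comparisons mix the sort with the genotype where cKO is 1 side, and share libraries with one another.

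Of the pairs that are all WT, WT over CD25lo called Rel and Nfkbiz (2 of 10 members, beside 1.94% of all genes tested), and WT over CD25hi called Nfkbid (1 of 10, beside 1.05%). Bulk WT Tregs were not divided by CD25, so they hold cells of both levels. The labels give no sort date, and handling cannot be told apart from the division by CD25 here. Rel was higher in WT than in CD25lo Tregs, with a log2 fold change of 0.67 (SE 0.12, limma adjusted p = 0.0103). It was at 0.79 without WT replicate 4 (adjusted p = 2.92e-05), and was no longer called without CD25lo replicate 2 (0.59, adjusted p = 0.13). Nfkbiz was higher by 1.05 on the same scale (SE 0.24, adjusted p = 0.0337), which became 1.33 without WT replicate 4 (adjusted p = 2.06e-05). Its call ended without any 1 of WT replicates 1 to 3 (adjusted p = 0.0885, 0.0772 and 0.0865) or of the CD25lo libraries (0.0866 and 0.259). Nfkbid was higher in WT than in CD25hi Tregs by 1.07 (SE 0.20, adjusted p = 0.0263), and 1.28 without WT replicate 4 (adjusted p = 5.04e-05). That call ended without WT replicate 1, 2 or 3 (0.0938, 0.0884 and 0.0856) and without CD25hi replicate 2 (0.117) or 3 (0.0604). With the immediate early level as a term, all 3 values fell short of the threshold: 0.35 for Rel (adjusted p = 0.14), 0.31 for Nfkbiz (0.381) and 0.30 for Nfkbid (0.517). Calls over all genes tested were lost as well. In WT over CD25lo that term left 7 higher and 2 lower, beside 216 and 99 without it. In WT over CD25hi it left 0 higher and 0 lower, beside 140 and 31. The lost calls are therefore not particular to these members.

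Between cKO and CD25lo Tregs, 5 of 10 members were called, all higher in cKO Tregs, beside 7.6% of all genes tested. For 6 of 10 all cKO libraries lay above both CD25lo libraries, as for 16.7% of all genes tested. The called members were Rel (log2 fold change 0.60, adjusted p = 0.00392), Nfkbiz (1.02, 0.0119), Nfkbid (0.83, 0.0268), Nfkb2 (0.38, 0.0387) and Nfkb1 (0.23, 0.0405). Without CD25lo replicate 1 only Rel was called and without CD25lo replicate 2 none was. Without cKO replicate 1 or 3, Rel, Nfkbiz and Nfkbid were called, and without cKO replicate 4 or 5, Rel and Nfkbiz. Nfkb1 also missed the threshold without WT replicate 1 (adjusted p = 0.0502) and without CD25hi replicate 3 (0.0504). Between cKO and CD25hi Tregs, 2 of 10 were called, beside 9.59%: Nfkbid (1.06, adjusted p = 0.0015) and Nfkbiz (0.66, adjusted p = 0.0494), which missed the threshold without any 1 of 10 libraries (adjusted p up to 0.146). With the immediate early term the value of Nfkbid over CD25hi was 0.51 (adjusted p = 0.0137) and that of Nfkbiz 0.03 (0.908). With high or low Xist of the library as a term, no member was called between cKO and either CD25-sorted group. Few genes of any kind were called with it. It called 25 higher and 1 lower in cKO over CD25lo, beside 780 and 454 without it. For cKO over CD25hi it called 31 higher and 16 lower, beside 974 and 583. Every cKO library and no CD25-sorted library had high Xist, so this fit says little about the members.

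The level of 3 members moved most closely with the immediate early level of the libraries. Over the 14 libraries, r was 0.93 for Nfkbid (Spearman's rho 0.94), 0.92 for Nfkbiz (rho 0.84) and 0.87 for Rel (rho 0.89). Without the 2 libraries farthest from the median (WT replicates 1 and 2), r was 0.93, 0.89 and 0.84 for the same 3 genes. Within the 9 bulk libraries r was 0.93 for each of Nfkbid, Nfkbiz and Rel (rho 0.84, 0.85 and 0.86). Nfkbib was close to them there, with r of 0.85 (rho 0.74). Over all 14 libraries Nfkbib (0.71), Nfkbie (0.68), Nfkb2 (0.64) and Relb (0.54) came next, and Nfkb1 (0.42), Bcl3 (0.31) and Rela (0.27) were the lowest. These are descriptions over libraries that share their groups and scaling, and the bulk and CD25-sorted libraries differ in both measures. The myeloid marker level, given above, was also high in WT replicates 1 to 3, and its part in these levels was not tested.

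**Figure D4:**
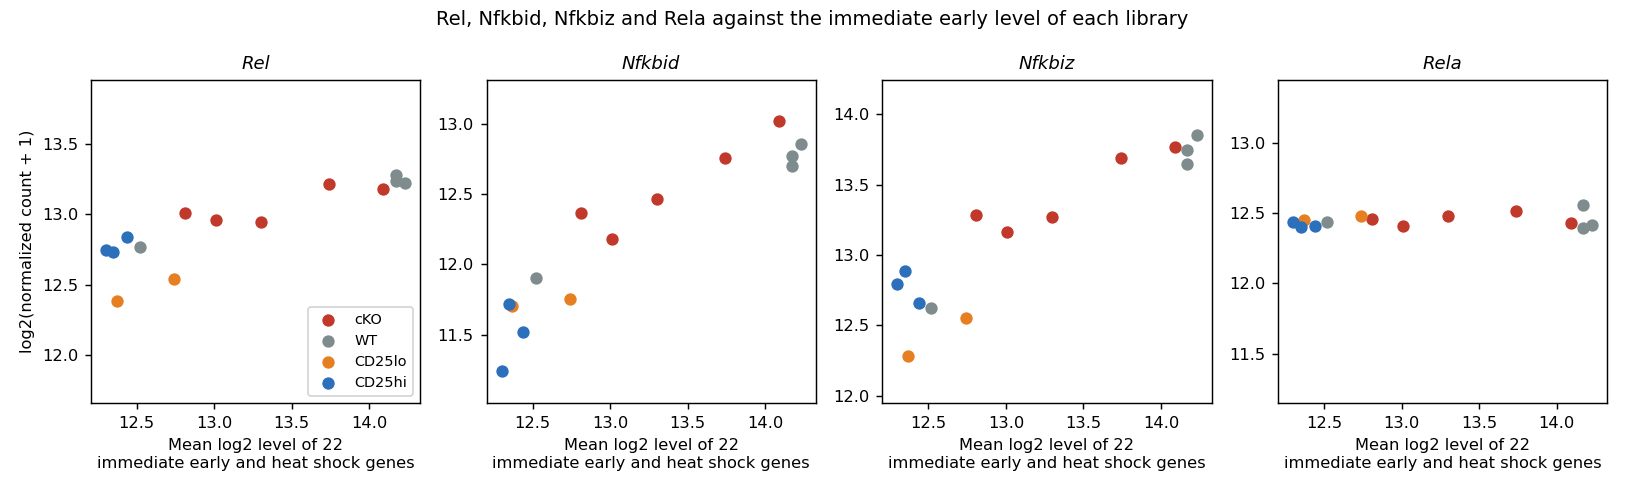
Level of Rel, Nfkbid, Nfkbiz and Rela (vertical axes, log2 of the normalized count + 1, each spanning the same log2 range) against the immediate early level of the library, a mean of log2 levels over 22 genes (horizontal axes) in the 14 libraries. Nfkbid, Nfkbiz and Rel climb along the axis (r of 0.93, 0.92 and 0.87) with WT replicate 4 at the CD25-sorted end, and Rela is flat.

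Rel and Nfkbiz had the closest pattern of any pair of members (r = 0.96 over 14 libraries), followed by Nfkbiz and Nfkbid (0.91) and Rel and Nfkbid (0.85). Among 5830 genes with a mean of at least 1000 normalized counts, the 3 genes most like Nfkbid were Pmaip1 (0.98), Ppp1r15a (0.97) and Rgs2 (0.97). Those most like Nfkbiz were Dusp1 (0.98), Csrnp1 (0.97) and Zc3h12a (0.97), and those most like Rel were Nfkbiz (0.96), Dusp4 (0.96) and Irs2 (0.95). These 3 members were singled out after their values were seen. Dusp1 is also 1 of the 22 immediate early and heat shock genes. Tnfaip3, which encodes the NF-κB inhibitor A20 and was likewise singled out afterwards, was at 73225, 61305, 60099, 99684 and 93218 normalized counts in cKO Tregs and at 86326, 100586, 87846 and 12457 in WT Tregs. It was at 16009 and 10084 in CD25lo Tregs and at 15832, 12832 and 9971 in CD25hi Tregs, so that 8 bulk libraries were at 60099 or more and the other 6 libraries at 16009 or less.

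NF-κB itself binds sequences of the form GGNNTTTCC, and 5.82% of 32851 RefSeq promoters (250 bases before to 50 after a start, GRCm38.p6) hold these letters or their reverse complement GGAAANNCC. Of the members, 7 had promoter entries, and 3 of these held the motif: Bcl3, Nfkb2 and Rel. Counted by entry, the unit of the 5.82%, 5 of 11 held it, and overlapping entries of Nfkb2 share the same site. Relb, Nfkb1 and Nfkbiz had no entry. The windows are shown because these members are read here as parts of a family that can act on its own genes, with the motif in capitals, read on the gene's strand.
Bcl3, chr7:19822840-19822869 (minus strand): cgcgggtccaGGAAACCCCtggggcggacg
Nfkb2, chr19:46304717-46304746 (plus strand): gggccgaaagGGGCTTTCCcggctggagcc
Nfkb2, chr19:46305696-46305725 (plus strand): ggtattttcgGGACTTTCCtaagcagcact
Rel, chr11:23771041-23771070 (minus strand): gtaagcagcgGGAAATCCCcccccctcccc
A match says only that the letters are there. The promoter entries of Nfkbib, Nfkbid, Nfkbie and Rela held no match in their windows.

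Around the members, 5 lists of 66 other genes covered further steps of the pathway. In cKO against WT Tregs, 3 of the 66 were higher and 1 was lower (4 of 66 called, beside 3.52% of all genes tested), and the median log2 fold change was -0.02. In CD25lo against CD25hi Tregs, 1 was higher and 6 were lower (7 of 66 called, beside 1.62% of all genes tested), and the median was 0.03. With high or low Xist of the library as a term, none of the 4 calls between cKO and WT Tregs was made (adjusted p = 0.109 to 0.89). Over all genes tested that fit called 13 higher and 9 lower, beside 332 and 240 without the term. WT replicate 3 was the only WT library with high Xist. These lists were drawn up with earlier results of the series known, and a share is a description of the list.

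No kinase that starts NF-κB signaling was called by limma-trend in cKO against WT or in CD25lo against CD25hi Tregs. Of 11 genes of the IKK complex and the noncanonical kinases, the smallest adjusted p belonged to Map3k14 (NIK, the kinase of the noncanonical route), at -0.17 in cKO over WT (adjusted p = 0.299) and 0.36 in CD25lo over CD25hi Tregs (0.102). Ikbke followed in the first (-0.20, 0.305), and Ikbkb, the catalytic IKKβ subunit, in the second (0.36, 0.137). DESeq2 called Map3k14 in the second (0.36, adjusted p = 0.0498), and with the immediate early level as a term limma called Ikbkb in the second (0.39, 0.00834) and Ikbke in the first (-0.28, 0.0194). Of 12 TRAF, cIAP and LUBAC adaptors none was called by limma-trend in either comparison. Traf6 was at -0.23 in cKO over WT (adjusted p = 0.121, and -0.31 with an adjusted p of 0.0157 without WT replicate 4) and -0.29 in CD25lo over CD25hi Tregs (0.205), Ripk1 at -0.20 in the first (0.168) and Rbck1, a LUBAC subunit, at 0.18 in the second (0.372). By an unadjusted p under 0.05, 2 kinase genes and 5 adaptors passed in cKO against WT Tregs, and 4 and 1 in CD25lo against CD25hi Tregs.

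Of 15 negative regulators, N4bp1 rose in cKO Tregs, averaging 3850.4 ± 326 normalized counts in cKO and 2919.5 ± 256 in WT Tregs (SD, n = 5 and n = 4), a log2 fold change of 0.40 (adjusted p = 0.00769 from limma). N4bp1 restrains NF-κB downstream of several receptors. Without WT replicate 4 its value was 0.33 (adjusted p = 0.0207). None was called in CD25lo against CD25hi Tregs, where Nkiras1 (0.58, adjusted p = 0.374) and Otud7b (0.21, 0.423) had the smallest p.

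The list of receptors upstream of NF-κB, which includes the ligand gene Cd40lg, held the most calls in CD25lo against CD25hi Tregs. Of its 14 genes, 1 was higher (Cd40lg) and 4 were lower. Over the list, 8 of 14 log2 fold changes were positive and the median was 0.03. Cd40lg, the ligand of CD40, rose (2029.8 ± 85.8 normalized counts in CD25lo and 1106 ± 120 in CD25hi Tregs, log2 fold change 0.88, adjusted p = 0.00449). The TNF receptor family genes Tnfrsf4 (OX40, -0.85, adjusted p = 0.018), Tnfrsf18 (GITR, -0.56, 0.0377), Tnfrsf1b (TNFR2, -0.51, 0.0426) and, named after its values were seen, Tnfrsf9 (4-1BB, -0.89, 0.0442) fell in CD25lo Tregs. Other genes of that family did not fall. Tnfrsf1a was at 1876 and 1508 normalized counts in CD25lo Tregs and at 1116, 1209 and 1380 in CD25hi Tregs, and Cd27 had a log2 fold change of 0.01. The calls of Tnfrsf4, Tnfrsf18 and Tnfrsf1b ended without either CD25lo library and without CD25hi replicate 1 or 3, with adjusted p up to 0.134, 0.251 and 0.257. The call of Tnfrsf9 ended under 15 of 28 alternatives. It ended without any 1 of 9 libraries (adjusted p up to 0.24), with edgeR (0.0529 with TMM and 0.0569 with DESeq2 size factors), limma-voom (0.0855), no filter (0.0964) and the Xist term (0.0601). The call of Tnfrsf1b ended as well with edgeR and DESeq2 size factors (adjusted p = 0.0533), limma-voom (0.0516), no filter (0.0799) and the Xist term (0.0576), and that of Tnfrsf18 with no filter (0.0732). Those of Tnfrsf18 also ended without cKO replicate 3 (0.0512) or WT replicate 1 (0.0536), and those of Tnfrsf1b without cKO replicate 1 or 4 or WT replicate 1 or 3 (up to 0.0608). In cKO against WT Tregs, Il1rl1, which encodes the IL-33 receptor ST2, rose (2393 ± 422 normalized counts in cKO and 1331 ± 221 in WT Tregs, log2 fold change 0.84, adjusted p = 0.00147; 0.76 and 0.00467 without WT replicate 4). The costimulatory receptor Cd28 rose as well (17753 ± 1857 normalized counts in cKO and 13579 ± 1755 in WT Tregs, log2 fold change 0.39, adjusted p = 0.028), a call that ended without cKO replicate 1, 4 or 5 or WT replicate 1 or 4 (adjusted p up to 0.0763) and with no filter (0.0575). The summed counts of the B cell markers, given above, were also higher in all cKO libraries, though not every marker was. Their part in these values was not tested.

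Of 21 NF-κB target genes of lymphocytes, which include the members Rel, Relb and Nfkb2, Lta (lymphotoxin α) fell in both comparisons. It averaged 1609 ± 125 normalized counts in cKO and 2604 ± 470 in WT Tregs (log2 fold change -0.68, adjusted p = 0.00254), and 2145 ± 98.4 in CD25lo and 3610.5 ± 568 in CD25hi Tregs (-0.74, adjusted p = 0.0211). Without WT replicate 4 the first was at -0.60 (adjusted p = 0.00806). The second call ended without either CD25lo library or without CD25hi replicate 1 or 3 (adjusted p up to 0.178). Bcl2l1, which encodes the survival protein Bcl-xL, fell in CD25lo Tregs (1410.3 ± 395 in CD25lo and 2308 ± 419 in CD25hi Tregs, -0.72, adjusted p = 0.0286), and was at -0.43 without CD25lo replicate 1 (adjusted p = 0.274), with the call also lost without CD25hi replicate 1 (0.0598) or 3 (0.112), with no filter (0.056) or with only the groups compared (0.107). The median over the 21 genes was -0.02 in cKO over WT and -0.10 in CD25lo over CD25hi Tregs.

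**Figure D5:**
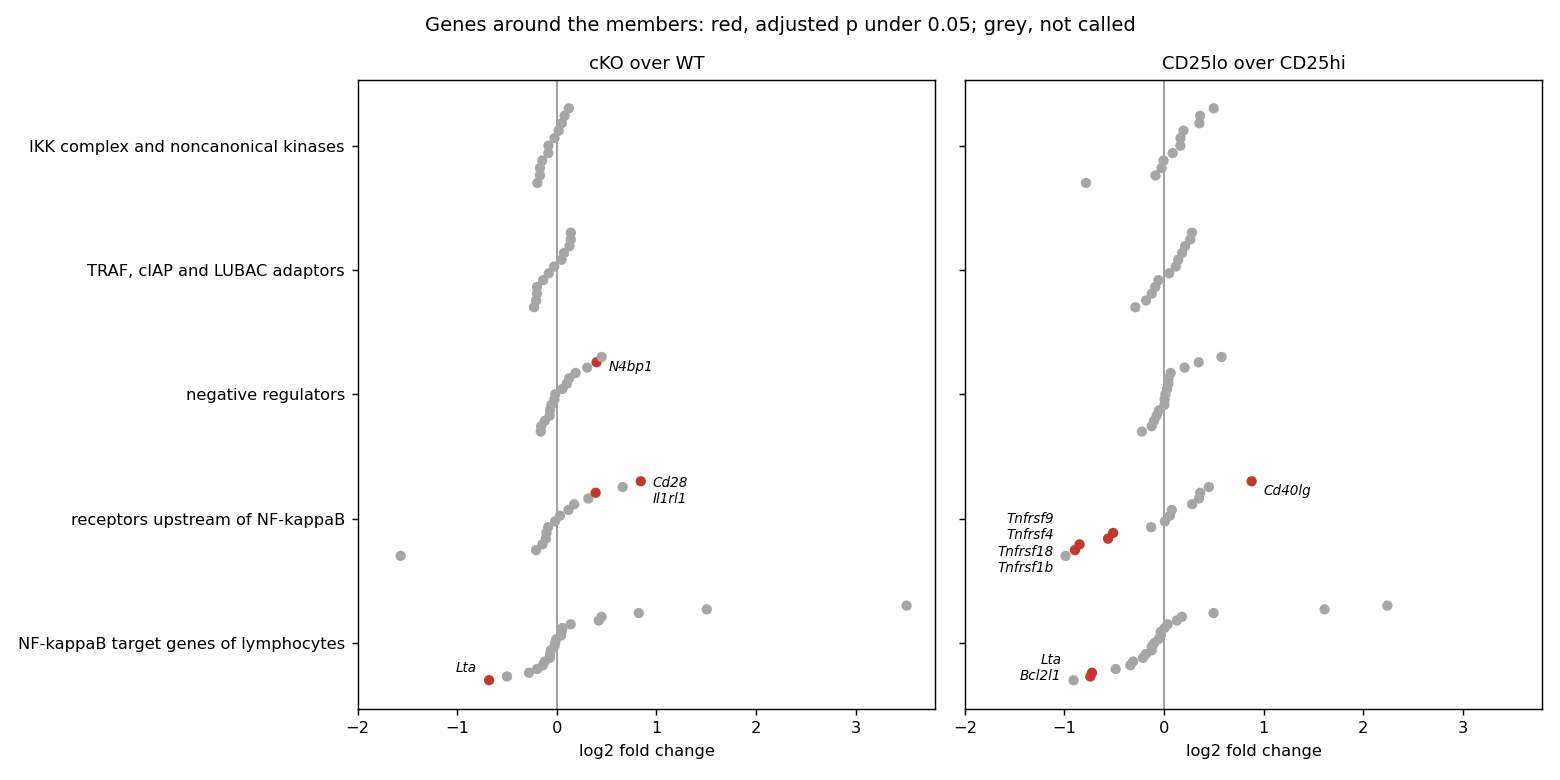
Log2 fold change (horizontal axes) of every gene in the 5 pathway lists for cKO over WT (left) and CD25lo over CD25hi (right), with called genes in red and named. Calls are few. In CD25lo Tregs the 4 called TNF receptor family genes lie on the low side, while 8 of the 14 genes of the receptor list lie above 0.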

How the data were processed

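Total RNA of the 14 Treg samples was made into sequencing libraries by the authors. Per the labels they aligned reads with STAR 2.7.2b to GRCm38 and scaled gene counts with DESeq2 1.24.0. The deposited values used here are a signal, namely read counts divided by the authors' size factor of each library (normalized counts, rounded to 0.1). Another 14 columns of stabilized values, and 20 columns with fold changes and p-values of 5 comparisons by the authors, were not used. Whole reads were recovered for 100.0% of values (tolerance 0.055 normalized counts) and totalled 30055573 to 35226685 a library. The counting error of a member exceeded its SD between libraries for Relb in CD25hi and Rela in CD25lo Tregs, 2 of 40 cases.

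The 16241 genes that reached 10 normalized counts in 2 or more libraries entered limma-trend (limma 3.58.1, R 4.3.3) as log2(normalized count + 1). Means of the 4 groups were fitted over all libraries (moderated df 18.3), with Benjamini-Hochberg adjustment over all genes tested and a threshold of 0.05. SE is the standard error of a log2 fold change, intervals are 95%, and tests are two-sided. Fold changes of low genes are understated by the added 1. Alternatives were other added counts, filters and scalings, and edgeR 4.0.16, DESeq2 1.42.0 and limma-voom on recovered reads. Further ones were a replicate block, leaving out each library, and a term for Xist or for the immediate early level. The Xist term held only whether Xist was high or low in a library. The other pairs of groups and the difference of the comparisons were added after seeing the data. The fit was tested on simulated data. Members and gene lists were chosen with earlier results of these data known. Named list genes are, for each list and comparison, up to 4 called genes of smallest adjusted p, or else the 2 of smallest p. Results for 1 further list of pathway genes and 1 further marker gene are not reported here.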

Additional observations from a re-analysis of the deposited data

Results flagged for a closer look

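In 64 groups of 4 or 5 libraries of the named genes, 3 libraries lay far from the rest of their group, where chance gives about 1 in 20 groups, and all 3 were WT replicate 4. Rel was at 6986.4 normalized counts in WT replicate 4, against 9567.1 to 9963.3 in the other WT libraries. Tnfaip3 was at 12456.9 in WT replicate 4, against 86325.8 to 100585.7 in the other WT libraries. Ikbkb was at 10459.1 in WT replicate 4, against 8375.9 to 8518.6 in the other WT libraries. The immediate early and myeloid marker levels of WT replicate 4 were also the lowest of the WT group, and their part in these values was not tested.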

How the results depend on the processing

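No member was called between cKO and WT Tregs under any of 28 alternatives. Between CD25lo and CD25hi Tregs (0 called) DESeq2 called 1, leaving out 1 library 0 to 1, and the immediate early term 3. That term called 2 for the difference of the comparisons (0 called). For WT against CD25hi (1 called) the count was 0 with no filter, with only the groups compared, with limma-voom and with the Xist or the immediate early term, 3 with DESeq2, and 0 to 3 leaving out 1 library. For WT against CD25lo (2 called) it was 1 with no filter, limma-voom, the replicate block or the Xist term, 0 with only the groups compared or the immediate early term, 5 with DESeq2, and 0 to 4 leaving out 1 library. For cKO against CD25hi (2 called) it was 1 with an added count of 0.5, no filter, the block, limma-voom or the immediate early term, 0 with the Xist term, and 1 to 3 leaving out 1 library. For cKO against CD25lo (5 called) it was 3 with no filter, 2 with the block or the immediate early term, 0 with the Xist term, and 0 to 6 leaving out 1 library. Totals over all genes moved too. DESeq2 called 614 higher and 230 lower in WT against CD25lo, beside 216 and 99 in the main fit. In WT against CD25hi it called 491 and 146, beside 140 and 31, and the fit with no filter called 2 and 1. For cKO against CD25lo the block called 296 and 121, beside 780 and 454. The cause of these changes was not tested. Restricting to the groups compared gives no value for the difference.

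These log2 values turned sign. For cKO over WT, leaving out 1 library gave -0.004 to 0.119 for Nfkb2, -0.011 to 0.041 for Rela, -0.102 to 0.021 for Relb, -0.234 to 0.015 for Nfkbib, -0.221 to 0.096 for Nfkbid, -0.312 to 0.099 for Nfkbiz, -0.009 to 0.212 for Cd40lg and -0.054 to 0.064 for Nkiras1. The immediate early term gave 0.032 for Rel, 0.017 for Relb, 0.020 for Nfkbib, 0.205 for Nfkbid, 0.203 for Nfkbiz and -0.001 for Ikbkb. TMM gave Nfkbid 0.008 and upper-quartile scaling 0.001, the block gave Nkiras1 0.064 and the Xist term Tnfrsf18 0.008. For CD25lo over CD25hi, leaving out 1 library gave Nfkbib -0.072 to 0.340. For the difference, the Xist term gave Rela 0.010 and Relb -0.048, the block gave Relb -0.007, leaving out 1 library gave Relb -0.005 to 0.127, and the immediate early term gave Nfkbid 0.073.

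Same-numbered cKO and WT libraries did not deviate together (r of -0.433 to -0.245; 0.142 and -0.031 for the CD25 groups), so the numbers were not taken to pair libraries. Over all genes the block called 163 higher and 127 lower in cKO against WT Tregs, beside 332 and 240 without it, and DESeq2 called 468 and 427. Between CD25lo and CD25hi Tregs DESeq2 called 258 higher and 416 lower, beside 99 and 164.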
